A study of Mus musculus with 2 samples.

Results

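Mineralized tissue forms where the balance of phosphate and pyrophosphate favours crystal growth, and 10 genes of that balance were described here: Bglap and Bglap2, which encode osteocalcin; Alpl, Phospho1 and Smpd3, which serve the supply of phosphate and the lipid side of matrix vesicles; Enpp1 and Ank, which make and export pyrophosphate; Phex, a peptidase of dentin and bone whose loss causes phosphate wasting; and Slc20a1 and Slc20a2, the sodium-dependent phosphate transporters PiT1 and PiT2. The members were all rows of the count tables whose gene symbol was one of these 10, and each symbol matched 1 of the 34285 genes listed. As background, pyrophosphate blocks the growth of hydroxyapatite, and tissue-nonspecific alkaline phosphatase, the product of Alpl, removes it while releasing phosphate. Osteocalcin is a small Gla protein that binds mineral and is the classical late marker of osteoblasts and odontoblasts, so the set spans makers, removers and carriers of the same ions.

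The data were 2 single-cell RNA libraries from first mandibular molars with the tissue around them, taken from C57BL/6J mice at PN15.5 (postnatal day). The Lipo-Clo library came from mice given clodronate liposomes, which kill phagocytes, at 40 μg/g first on PN3.5 and again on PN6.5, on PN9.5 and on PN12.5, and the Lipo-PBS library from mice given vehicle liposomes. How many mice went into each library is not given in the sources used here, and with 1 library per condition no difference between the conditions could be tested. Every interval below is a 95% interval for counting error only and holds no spread between mice.

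After filters, 8254 Lipo-Clo and 8261 Lipo-PBS cells with a median of 2567 and 2678 unique molecular identifiers (UMIs, each 1 captured RNA molecule) were used. Cells shared 23 barcodes between the libraries. Macrophages numbered 126 and 172 cells and neutrophils 522 and 214 in Lipo-Clo and Lipo-PBS. Mitochondrial RNA made up 0.370% and 1.73% of UMIs. A cluster that carried markers of several lineages held 50 Lipo-Clo and 721 Lipo-PBS cells and stayed outside the named classes. So did a cluster led by Igkc and Cd79a (373 and 208 cells) and one led by Cd74 and S100a9 (387 and 177 cells). The B cell and macrophage classes therefore do not include them, though the former marked B cell genes and the latter macrophage genes among others. Dental mesenchyme, the connective tissue lineage of tooth and jaw, held 4275 and 4041 cells, which were divided into 11 states without using the 10 genes. Of these, 9 could be named from marker genes, each name standing for a likeness only.

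The 2 osteocalcin genes are shown first because they lie side by side on chromosome 3 and are almost the same. In GENCODE M21 (GRCm38), the Bglap transcript spans chr3:88383501-88384433 and the Bglap2 transcript chr3:88377736-88378699, both on the minus strand. Their coding sequences, printed without the stop codon, are 285 bases long and differ at 4 bases, which are in capitals.
Bglap: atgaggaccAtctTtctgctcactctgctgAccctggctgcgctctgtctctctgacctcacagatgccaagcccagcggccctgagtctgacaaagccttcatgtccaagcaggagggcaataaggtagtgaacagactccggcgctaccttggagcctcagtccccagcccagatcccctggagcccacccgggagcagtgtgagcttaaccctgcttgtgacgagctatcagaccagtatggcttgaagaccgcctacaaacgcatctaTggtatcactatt
Bglap2: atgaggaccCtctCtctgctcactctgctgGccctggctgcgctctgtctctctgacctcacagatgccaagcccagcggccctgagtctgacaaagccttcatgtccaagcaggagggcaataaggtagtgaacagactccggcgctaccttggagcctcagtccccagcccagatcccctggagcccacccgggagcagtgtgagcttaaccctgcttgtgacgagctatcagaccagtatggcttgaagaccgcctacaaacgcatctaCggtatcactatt
Counted from the first coding base, with the Bglap base first, the differences are A10C, T14C, A31G and T273C. The 137 bases after the last coding base printed above are identical between the 2 transcripts, and the third copy, Bglap3, matches them at 135 of 137. A read that lies wholly inside a shared stretch cannot be given to 1 of the genes. The separate values of Bglap and Bglap2 are therefore uncertain, and the sum of both is called osteocalcin below.

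Among cell classes, osteocalcin, Smpd3, Phex and Slc20a2 were highest in dental mesenchyme in both libraries. In Lipo-Clo and Lipo-PBS, mesenchyme held 87.6% and 84.0% of all Bglap UMIs, 90.9% and 82.3% of Smpd3 and 89.6% and 87.3% of Phex. Levels were taken as UMIs per 1000000 UMIs of the class (CPM). Bglap stood at 1703 CPM (1682 to 1725) in Lipo-Clo mesenchyme and 1559 CPM (1538 to 1580) in Lipo-PBS mesenchyme. B cells, which do not make osteocalcin, still carried Bglap at 29.9 CPM (17 UMIs) and 79.3 CPM (15 UMIs), with a UMI in 11.3% and 21.7% of cells at a median depth of 2432 and 2378 UMIs. A Bglap UMI was seen in 898 of 4275 and 1125 of 4041 mesenchymal cells at a median of 2840 and 2960 UMIs, and in 12.8% and 17.3% of them once every cell was thinned to 1000 UMIs, against 5.11% and 10.2% of B cells. A share near that of B cells was not read as expression, since free RNA in droplets can give one, which was not tested. B cells had the lowest Bglap of all classes, and neutrophils, not known for osteocalcin either, stood at 111 and 157 CPM.

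Alpl and Enpp1 had a second home outside the mesenchyme. Epithelium carried Alpl at 360 CPM (337 to 383) in Lipo-Clo and 149 CPM (134 to 164) in Lipo-PBS, against 291 and 245 CPM in mesenchyme and 56.3 and 58.2 CPM in B cells, so the first place of Alpl passed from epithelium in Lipo-Clo to mesenchyme in Lipo-PBS. Enpp1 was higher in epithelium than in any other named class, at 116 CPM (103 to 129) and 55.2 CPM (46.6 to 65.0), with mesenchyme at 26.2 and 35.8 CPM. Of the epithelial UMIs, 880 of 956 and 308 of 390 for Alpl and 302 of 307 and 119 of 145 for Enpp1 came from 1 cluster led by the enamel genes Ambn, Amtn, Odam and Amelx. In that cluster Alpl stood at 530 and 340 CPM and Enpp1 at 182 and 131 CPM, while the cluster led by Lgals7 and the keratins Krt14 and Krt5 had Alpl at 57.7 and 48.6 CPM and Enpp1 at 4.80 and 16.2 CPM. The enamel cluster thus held a pyrophosphate maker and a pyrophosphate remover together. That cluster held 606 of 846 epithelial cells in Lipo-Clo and 340 of 792 in Lipo-PBS.

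The share of Bglap2 among osteocalcin UMIs varied between cell groups. In the enamel cluster Bglap2 gave 61.5% (59.5 to 63.5%) of them in Lipo-Clo and 57.1% (53.8 to 60.4%) in Lipo-PBS. In the odontoblast-like state it gave 18.7% (18.1 to 19.2%) and 21.6% (up to 22.2%), and in the osteoblast- or cementoblast-like state 45.4% (44.4 to 46.4%) and 47.0% (45.8 to 48.1%). Neutrophils, another class not known for osteocalcin, stood at 39.0% and 42.1%. Intervals of other groups overlapped that of the enamel cluster, with the unnamed state led by Pappa2 at 55.6% (50.5 to 60.7%) in Lipo-Clo, and in Lipo-PBS the cycling state at 51.2% (43.2 to 59.2%) and the keratin cluster at 50.1% (45.5 to 54.7%). The order odontoblast-like, osteoblast-like, enamel epithelium was the same in both libraries, with no overlap of intervals, and the read sharing described above bears on all of them.

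Ank, Slc20a1 and Slc20a2 differed in how much of their RNA lay in mesenchyme. Of the Ank UMIs, 82.6% and 72.4% lay there. Ank, the membrane protein through which pyrophosphate leaves the cell, stood at 103 and 109 CPM in mesenchyme and at 79.0 CPM (58.2 to 105) and 90.4 CPM (74.6 to 108) in endothelium, so the intervals of the 2 classes overlapped in each library. Slc20a1 was highest in endothelium at 47.7 CPM (32.0 to 68.5) and 41.7 CPM (31.2 to 54.5), though its intervals overlapped those of the next classes, macrophages at 34.0 CPM in Lipo-Clo and T or NK cells at 33.9 CPM in Lipo-PBS, and 33.3% and 36.4% of its UMIs lay in mesenchyme. Slc20a2 had 82.9% and 73.1% of its UMIs in mesenchyme. Phospho1, a phosphatase of matrix vesicles, was close to undetected at 7 UMIs in all Lipo-Clo cells and 11 in all Lipo-PBS cells. Glia gave 0 Phospho1 UMIs, which allows up to 7.76 and 4.30 CPM (3 counts of the total), so no order of classes can be read for it.

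**Figure D1:**
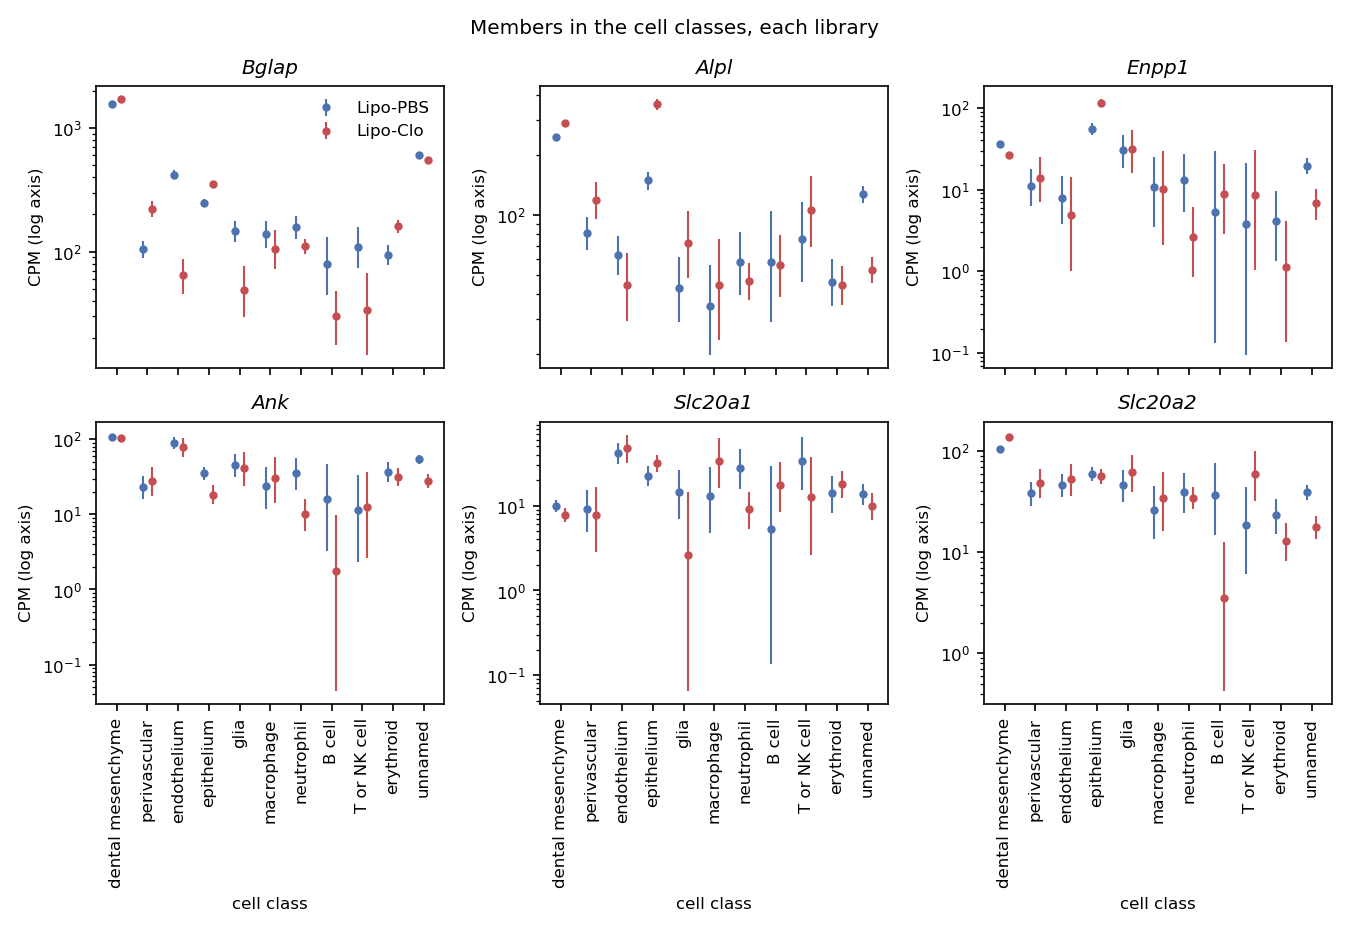
Level of 6 members in each cell class, in CPM on a log axis, with points for each library and bars for the 95% Poisson interval; a point at 0 is not drawn. Bglap and Slc20a2 peak in dental mesenchyme, Enpp1 in epithelium and Slc20a1 in endothelium in both libraries.

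Within the mesenchyme the members were not spread alike over the states, though several shared the same highest state. The names were checked against markers: Dspp, the dentin sialophosphoprotein gene, stood at 2451 and 2052 CPM in the odontoblast-like state and at 4.49 and 7.50 CPM in the osteoblast- or cementoblast-like state, and Ibsp, which encodes bone sialoprotein, stood at 19208 and 20330 CPM in the latter. Of the osteoblast markers, Mepe had 0 UMIs in that state in both libraries. Not every listed marker was highest in its own state. Dmp1 and Ifitm5, listed for osteoblasts, stood at 529 and 643 CPM and at 631 and 431 CPM in the odontoblast-like state. In the osteoblast- or cementoblast-like state they stood at 391 and 370 CPM and at 245 and 172 CPM. Spp1 stood there at 2137 and 2000 CPM, against 2805 and 3025 CPM in the unnamed state led by Pcp4 and Pdzrn4. The odontoblast marker Dlx3 stood at 43.1 and 30.6 CPM in the odontoblast-like state, against 131 and 133 CPM in the state led by Ctnnd2. The odontoblast-like state had 120 Lipo-Clo and 93 Lipo-PBS cells and the osteoblast- or cementoblast-like state 571 and 508.

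Osteocalcin was highest in the odontoblast-like state. Bglap reached 23491 CPM (23138 to 23848) in Lipo-Clo and 26079 CPM (25643 to 26521) in Lipo-PBS, and Bglap2 5388 and 7181 CPM. The osteoblast- or cementoblast-like state followed with Bglap at 2700 and 2381 CPM and Bglap2 at 2245 and 2108 CPM. These 120 and 93 odontoblast-like cells, 2.81% and 2.30% of mesenchymal cells, thus held 60.2% and 54.7% of all Bglap UMIs of their libraries. The periodontal ligament-like state came next with Bglap at 792 and 1144 CPM, where 9 of 220 and 20 of 502 cells held 79.0% and 78.7% of the osteocalcin UMIs. At the other end, the fibroblast-like state led by Col14a1 and Ccl19 had 50.5 and 34.9 CPM, near the level of B cells.

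Smpd3, the neutral sphingomyelinase of bone and dentin, was shared by the same states and 1 more. It stood at 871 CPM (804 to 942) and 664 CPM (596 to 738) in the odontoblast-like state and at 634 CPM (598 to 672) and 784 CPM (743 to 827) in the osteoblast- or cementoblast-like state, so the order of the 2 states was not the same in the 2 libraries. A papilla- or pulp-like state led by Pcp4 and Lrrc4c had 263 and 400 CPM, where its osteocalcin was only 161 and 366 CPM. Outside these 3 states Smpd3 did not exceed 80.1 CPM.

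Phex was also highest in the odontoblast-like state, which held 64.3% and 45.8% of its UMIs. It stood at 497 CPM (447 to 552) and 536 CPM (475 to 603) in the odontoblast-like state, in 62.5% and 58.1% of cells. The osteoblast- or cementoblast-like state had 7.87 and 5.19 CPM, from 14 and 9 UMIs. The next level was in the fibroblast-like state led by Mfap5 and Clec3b, at 64.4 CPM (50.2 to 81.4) and 76.1 CPM (64.8 to 88.8), in 11.8% and 11.6% of cells. That state held 12.6% and 26.3% of all Phex UMIs, while the same cells had Bglap at only 77.3 and 135 CPM.

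The pyrophosphate side peaked with the osteoblast- or cementoblast-like state. Ank stood there at 466 CPM (435 to 499) and 487 CPM (454 to 521), with the odontoblast-like state next at 172 CPM (143 to 205) and 111 CPM (84.3 to 144), the latter not apart from the 100 CPM (80.9 to 123) of the papilla- or pulp-like state led by Pcp4. Enpp1, the enzyme that makes pyrophosphate from nucleotides, stood at 125 CPM (109 to 142) and 147 CPM (130 to 166), with the periodontal ligament-like state next at 42.9 and 56.4 CPM. The odontoblast-like state had only 9 and 18 Enpp1 UMIs.

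Alpl had another pattern. It was highest in a state led by Pappa2 and Entpd3 that could not be named, at 558 CPM (529 to 588) and 543 CPM (510 to 577), and in the papilla- or pulp-like state led by Ctnnd2 and Slc20a2, at 467 CPM (424 to 513) and 605 CPM (542 to 673). These neighbours overlapped in Lipo-PBS and not in Lipo-Clo. The osteoblast- or cementoblast-like state had 185 and 272 CPM and the odontoblast-like state 243 and 211 CPM. The order was not stable to the processing. Among named states, those of the same name pooled, Alpl was highest in the cycling state in Lipo-Clo and the papilla- or pulp-like in Lipo-PBS. This held in only 3 of 7 and 4 of 7 alternatives. With a coarser division of the mesenchyme the osteoblast- or cementoblast-like state was highest in both libraries. The unnamed states were not part of this check. Of the summed UMIs of Alpl, Enpp1 and Ank, Alpl gave 95.3% and 93.4% in the unnamed state led by Pappa2 and 23.8% and 30.0% in the osteoblast- or cementoblast-like state, the lowest share of the 11 states in both libraries.

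The transporters differed from each other. Slc20a2 was far higher in 1 state than in the others, the papilla- or pulp-like state led by Ctnnd2. It stood there at 1499 CPM (1420 to 1580) and 1704 CPM (1598 to 1816), with a UMI in 81.4% and 89.7% of cells. That state held 1371 of all 2415 Slc20a2 UMIs in Lipo-Clo and 949 of 1943 in Lipo-PBS. The next state, the papilla- or pulp-like one led by Pcp4, had 175 and 118 CPM. Slc20a1 stayed between 2.78 and 18.9 CPM over the 11 states, and the intervals of its 2 highest states overlapped in each library. Slc20a1 gave 0.580% and 0.420% of the summed UMIs of both transporters in the Ctnnd2 state and 47.5% and 47.3% in endothelium.

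**Figure D2:**
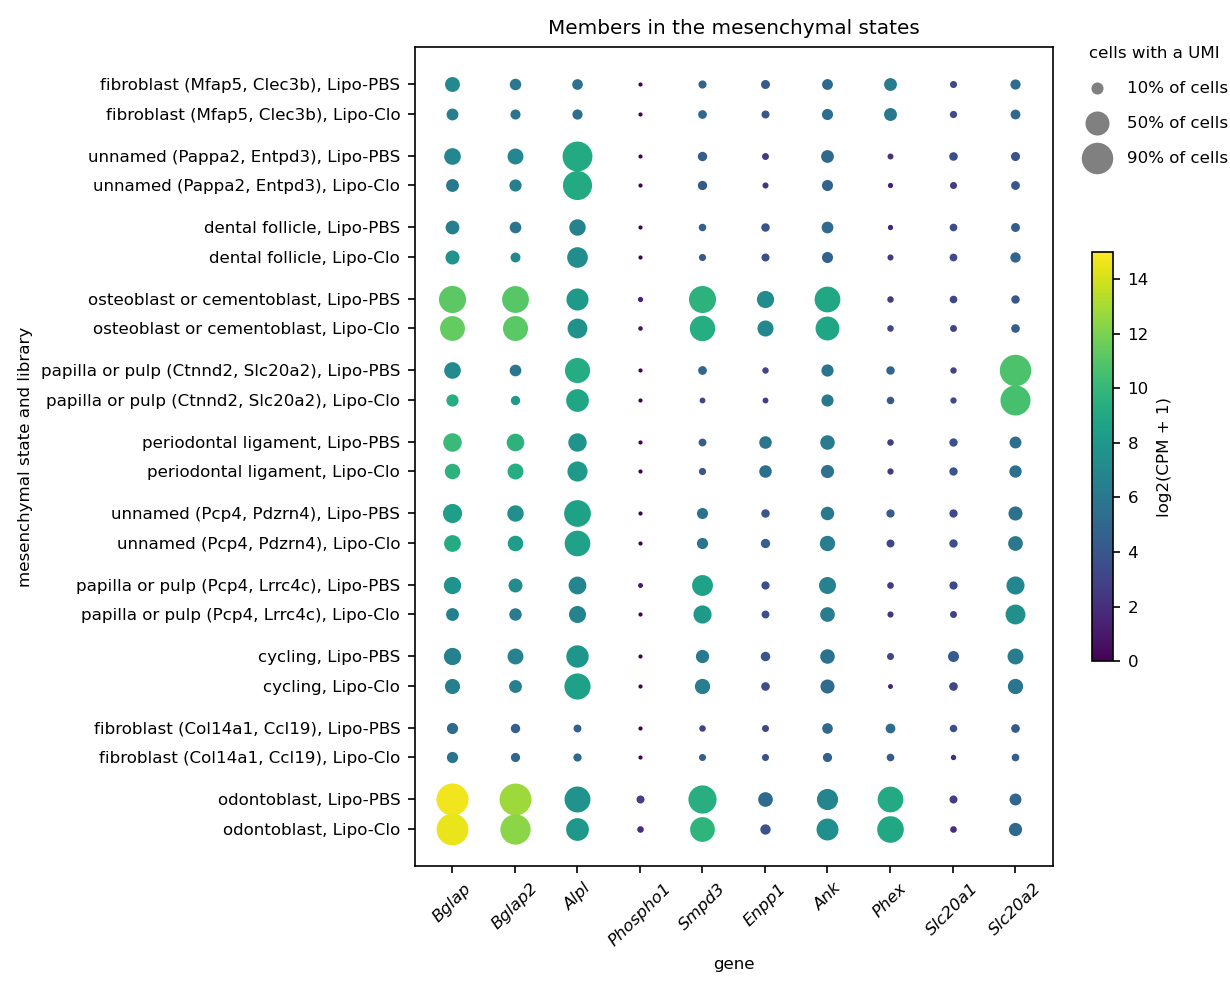
Members in the 11 mesenchymal states of each library, with dot area for the percent of cells with a UMI and colour for log2(CPM + 1). Large bright dots for Bglap and Bglap2 mark the odontoblast- and osteoblast-like states, those for Phex the odontoblast-like state and those for Slc20a2 the papilla- or pulp-like state led by Ctnnd2.

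Osteocalcin was uneven from cell to cell even inside these states. In the osteoblast- or cementoblast-like state, 36.3% of Lipo-Clo and 25.2% of Lipo-PBS cells had no osteocalcin UMI, while 72 of 571 and 60 of 508 cells gave at least 1% of their UMIs to it. Those few cells held 66.1% and 53.2% of the osteocalcin of the state. In the odontoblast-like state, 55.8% (46.5 to 64.9%) and 63.4% (52.8 to 73.2%) of cells reached 1%, and the highest cell gave 21.8% and 19.7%.

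The other members differed between those cells and the rest of the osteoblast- or cementoblast-like state, on a CPM scale that leaves osteocalcin out. Where osteocalcin was at least 1% of UMIs, Enpp1 stood at 342 and 286 CPM, against 93.8 and 132 CPM in the rest. Ank stood at 963 and 1024 CPM against 397 and 426 CPM, and Alpl at 146 and 132 CPM against 192 and 290 CPM. The intervals of the 2 sets of cells were apart in both libraries for Enpp1 and Ank, and for Alpl in Lipo-PBS only. They were also apart in both for Smpd3, at 803 and 1046 CPM against 613 and 757 CPM, and in Lipo-Clo only for Phex (9 and 5 UMIs) and Slc20a2 (11 and 24 UMIs). Ibsp stood at 19261 and 24826 CPM against 19309 and 19903 CPM, while Dmp1, a phosphoprotein of osteocytes and dentin, stood at 1123 and 760 CPM against 287 and 326 CPM.

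**Figure D3:**
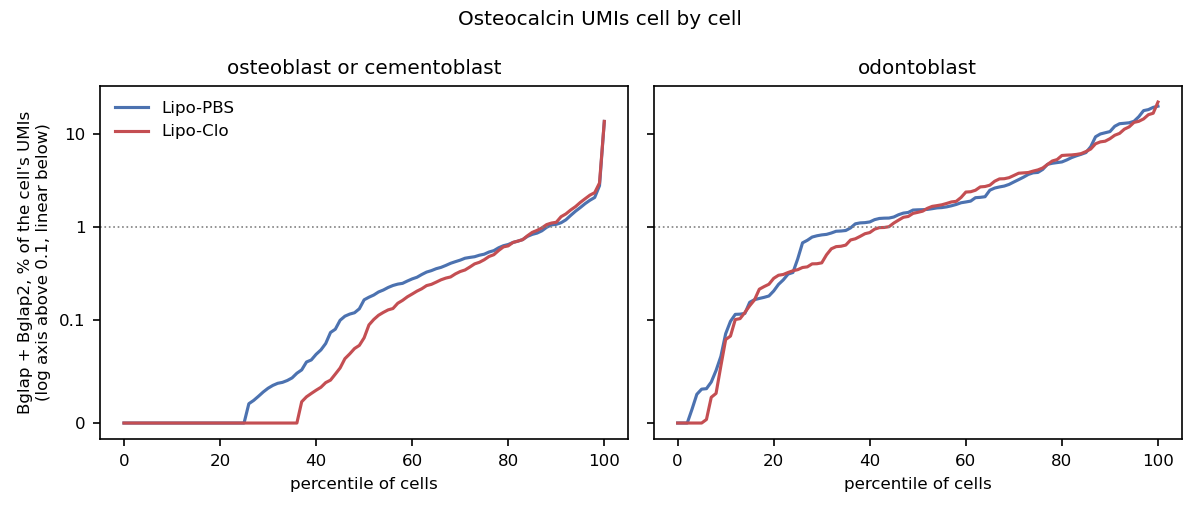
Percent of each cell's UMIs from Bglap and Bglap2, by percentile of cells, in each state and library; the dotted line marks 1%. In the osteoblast- or cementoblast-like state 36.3% of Lipo-Clo and 25.2% of Lipo-PBS cells lie at 0, and in the odontoblast-like state 55.8% and 63.4% of cells reach the line.

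A finer division of the mesenchyme, also made without the members, put most of the osteoblast- or cementoblast-like state into 3 clusters, all led by Ibsp. The cluster led by Ibsp, Spp1 and Dmp1 was made of cells of that state alone, and the others also held cells of other states. By the same marker rule it alone kept the name, while the cluster led by Ibsp, Smpd3 and Pthlh was named dental follicle-like. The cluster led by Ibsp and Pappa2 stayed unnamed. In this order the 3 clusters held 485, 390 and 187 cells of the state over both libraries. In the cluster led by Ibsp, Spp1 and Dmp1 (256 and 229 cells), Enpp1 stood at 232 and 253 CPM, Ank at 749 and 822 CPM and Alpl at 125 and 153 CPM. In the cluster led by Ibsp, Smpd3 and Pthlh (385 and 240 cells), Enpp1 stood at 15.9 and 41.3 CPM, Ank at 136 and 129 CPM and Alpl at 281 and 324 CPM. In the cluster led by Ibsp and Pappa2 (121 and 153 cells), Enpp1 stood at 14.5 and 39.8 CPM and Alpl at 401 and 543 CPM. Alpl was therefore lowest, and Enpp1 and Ank highest, in the cluster with most osteocalcin in each library.

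**Figure D4:**
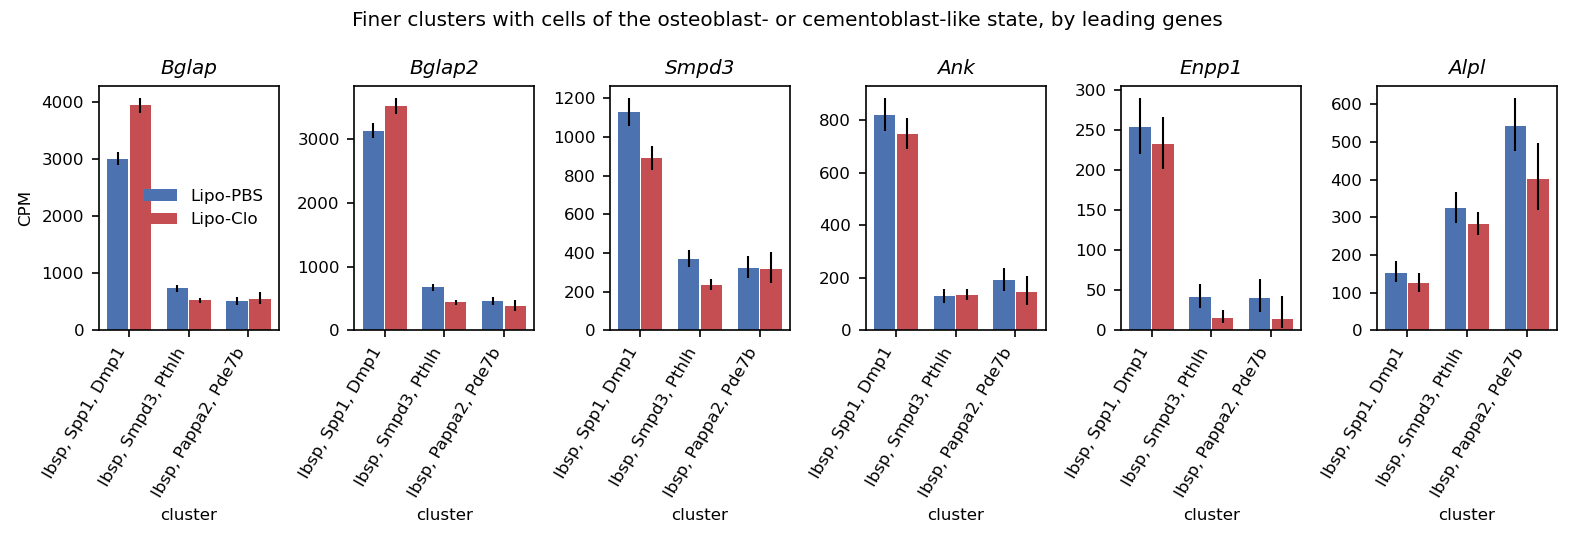
CPM of 6 members in the 3 finer clusters that hold most of the osteoblast- or cementoblast-like cells, with bars for each library and lines for the 95% Poisson interval. Bglap, Bglap2, Smpd3, Ank and Enpp1 are highest in the cluster led by Ibsp, Spp1 and Dmp1, and Alpl in the one led by Ibsp and Pappa2.

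Over the 22 combinations of the 11 states and 2 libraries, the genes whose log2(CPM + 1) followed each member most closely were noted as a description among 7457 genes; the points share libraries, depth and free RNA. Bglap followed Bglap2 (r = 0.979) and both followed Bglap3, which shares reads with them, and then Itga10 (r = 0.868 and 0.883). Smpd3 was closest to Sgms2, a sphingomyelin synthase gene (r = 0.932), then Tubb3 and Ifitm5. Slc20a2 was closest to St8sia6 (r = 0.939), Sox9 and Trf, and Alpl to Gprc5c (r = 0.877), Tmem176b and S1pr1. Phex was closest to Smap1 (r = 0.908), Ank to Elmo1 (r = 0.897), Enpp1 to Rasa3 (r = 0.80), Slc20a1 to Tpm3 (r = 0.788) and Phospho1, from few UMIs, to Crtac1 (r = 0.905). Among the members, Ank followed Smpd3 (r = 0.81) and Enpp1 (r = 0.73), while Alpl was within 0.38 of 0 with every other member.

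The promoter of Bglap is printed because Runx2, the master factor of osteoblasts, is known to act on it, and because Runx2 was measured in the same mesenchyme at 554 and 595 CPM. RefSeq promoters were found for 7 of the 10 members. The 250 bases before the Bglap start site (chr3:88384467-88384716, GRCm38.p6, minus strand) follow, with the Runx-type letters ACCACA in capitals.
Bglap promoter: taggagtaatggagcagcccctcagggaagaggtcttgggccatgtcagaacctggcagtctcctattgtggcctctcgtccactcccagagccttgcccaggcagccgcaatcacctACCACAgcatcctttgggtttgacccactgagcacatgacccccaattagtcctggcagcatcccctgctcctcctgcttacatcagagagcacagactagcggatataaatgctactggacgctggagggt
The letters began 132 bases before the start site. Searched on both strands, ACCACA was present in 14% of all 32851 promoters of this length and in those of Bglap, Enpp1 and 1 of the 2 start sites of Slc20a1 among the members. A match of 6 letters is a description only.

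The comparison of Lipo-Clo with Lipo-PBS asks whether clodronate treatment went with another level of these genes in dental mesenchyme. Genes were compared where 10% or more of the mesenchymal cells of either library had a UMI. Of these 4737 genes, 0.950% were past 1.5-fold higher and 5.28% past 1.5-fold lower in Lipo-Clo, and the median log2 ratio of all was -0.01. Of the members, Bglap, Bglap2, Alpl, Smpd3, Ank and Slc20a2 passed this filter, 6 of 10, and 0 of these 6 were past the limit in either direction.

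Among these 6, Slc20a2 and Alpl had the highest ratios. Slc20a2 stood at 139 against 106 CPM (Lipo-Clo first), which is 0.39 (0.29 to 0.49) on the log2 scale. For Alpl the levels given above make a log2 ratio of 0.25 (0.18 to 0.31). Both were higher in Lipo-Clo beyond counting error, yet with the libraries weighted to the same mixture of states the log2 ratio became -0.05 for Slc20a2 and 0.06 for Alpl. The mixture itself differed. The Ctnnd2 state, where Slc20a2 was highest, made up 11.6% of Lipo-Clo and 6.51% of Lipo-PBS mesenchymal cells, and the Pappa2 state, rich in Alpl, 15.8% and 11.2%.

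As summed, the osteocalcin genes differed little, in opposite directions, with intervals that left out 0. The log2 ratio in mesenchyme was 0.13 (0.10 to 0.15) for Bglap and -0.08 (-0.12 to -0.04) for Bglap2. With the same mixture of states it was -0.05 for Bglap and -0.12 for Bglap2, so the opposite directions did not hold. As summed, it was -0.07 (-0.15 to 0.02) for Smpd3 and -0.08 (-0.19 to 0.02) for Ank. Among the members under the filter, Enpp1 had a log2 ratio of -0.45 (-0.65 to -0.25), Phex -0.20 (-0.38 to -0.03) and Slc20a1 -0.36 (-0.74 to 0.01), and Phospho1 had -1.33 (-3.91 to 0.80) from 3 and 7 UMIs. Cells without an osteocalcin UMI made up 73.1% of Lipo-Clo and 64.5% of Lipo-PBS mesenchyme. Without the odontoblast- and osteoblast-like states, a choice made after seeing the data, the log2 ratio of Phex in the rest of the mesenchyme was -1.05 (-1.37 to -0.73), from 127 and 245 UMIs, and those of Bglap and Bglap2 were -0.23 (-0.31 to -0.16) and -0.30 (-0.39 to -0.21). Over all mesenchyme, Phex turned to 0.36 when taken as a mean over cells. The Mfap5 state, the second home of Phex, made up 10.2% of Lipo-Clo and 19.7% of Lipo-PBS mesenchymal cells.

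Markers of other cell classes differed between the libraries within mesenchyme. Summed over 9 neutrophil markers, mesenchyme carried 604 against 210 CPM (Lipo-Clo first), and all 9 were higher in Lipo-Clo. Over 7 erythroid markers it carried 22208 and 52158 CPM, with all 7 lower in Lipo-Clo. The 8 epithelial markers summed to 330 and 282 CPM, with 5 higher and 3 lower in Lipo-Clo. Over 8 endothelial markers it carried 28.5 and 47.7 CPM, with all 8 lower in Lipo-Clo. The sums of macrophage (7 of 8 lower), B cell (4 of 7 lower) and osteoclast (3 of 6 lower) markers were lower in Lipo-Clo too. Perivascular markers summed to 513 and 533 CPM, with 6 of 8 lower. Of that list, Acta2 and Tagln were also among the leading genes of the mesenchymal state led by Pcp4 and Pdzrn4. The part of these sums in the member ratios was not tested. When mitochondrial, ribosomal protein and haemoglobin genes were taken out of the totals, 0 of the 6 members were past the limit.

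Of 4592 genes compared within the osteoblast- or cementoblast-like state, 2.79% were past the limit higher and 3.77% lower in Lipo-Clo. Of the 6 members that passed the filter, 0 were past the limit, while under the filter Phex had 0.60 (-0.71 to 1.99) from 14 and 9 UMIs and Phospho1 had 1 and 3 UMIs. Of the 6, Alpl came nearest, at 185 against 272 CPM or -0.56 (-0.76 to -0.35) on the log2 scale, though with a coarser division of the mesenchyme, which gives a wider state, it was -0.02. Smpd3 had a log2 ratio of -0.31 (-0.42 to -0.19), while Bglap had 0.18 (0.12 to 0.24) and Bglap2 0.09 (0.03 to 0.16). Over the 13 alternatives Bglap ran from -0.04 to 0.39 and Bglap2 from -0.14 to 0.20, and only 7 and 8 of the 13 kept the sign. Without the cells that gave at least 1% of their UMIs to osteocalcin, its level was 1927 against 2355 CPM. Enpp1 and Ank had intervals that included 0. Alpl stood at 163 against 95.3 CPM in the dental follicle-like state and at 376 against 234 CPM in the cycling state.

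In the odontoblast-like state counts were lower and more genes of all kinds passed the limit, 10.8% higher and 13.3% lower of 6160. Of the 8 members that passed the filter, 1 was past the limit in each direction, near those shares, and 1 of these, Enpp1, passed the filter through Lipo-PBS alone. Ank was higher in Lipo-Clo, at 172 against 111 CPM (124 and 58 UMIs), a log2 ratio of 0.63 (0.17 to 1.11). Enpp1, seen in 6.67% of Lipo-Clo and 16.1% of Lipo-PBS cells, had a log2 ratio of -1.46 (-2.80 to -0.23) from 9 and 18 UMIs, and 0.42 with cells thinned to 1000 UMIs, so its direction was not settled. Bglap2 had a log2 ratio of -0.41 (-0.48 to -0.35), Smpd3 0.39 (0.20 to 0.58), Bglap -0.15 (-0.18 to -0.12) and Phex -0.11 (-0.34 to 0.12). Taken as a mean over cells, Phex had a log2 ratio of 1.01 in place of -0.11, and Alpl -0.37 in place of 0.21. Bglap had 0.00 in place of -0.15 by that measure, while with thinned cells Smpd3 had -0.22 in place of 0.39. The 12 of 120 and 10 of 93 cells with most osteocalcin held 61.0% and 47.4% of its UMIs. Without the 67 and 59 cells that gave at least 1% of their UMIs to osteocalcin, its level was 3655 against 2724 CPM. Neutrophil markers summed to 546 and 84.2 CPM and erythroid markers to 7211 and 37375 CPM in the odontoblast-like state. Endothelial markers summed to 19.5 and 144 CPM there, and macrophage markers to 8.34 and 47.9 CPM.

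**Figure D5:**
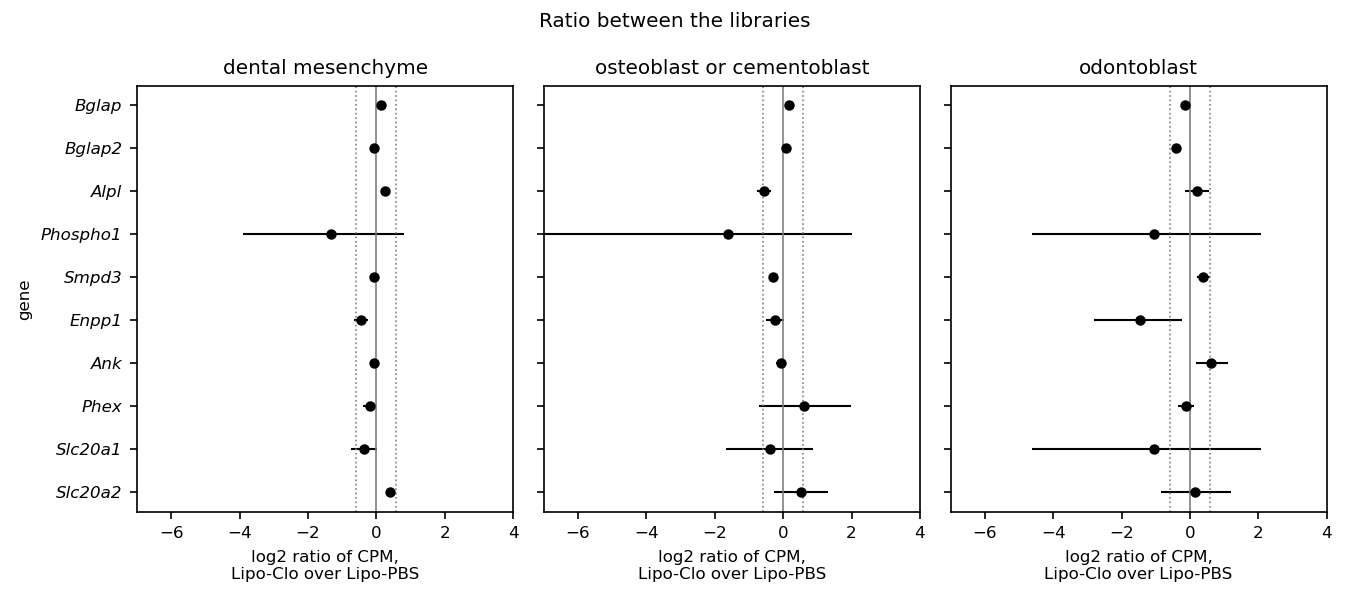
Log2 ratio of CPM, Lipo-Clo over Lipo-PBS, of the 10 members in dental mesenchyme and 2 of its states, with 95% intervals for counting error; dotted lines mark 1.5-fold. In mesenchyme the 6 members that passed the filter lie between -0.08 and 0.39, and the widest intervals belong to Phospho1 with 3 and 7 UMIs.

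In epithelium the ratios of Alpl, Enpp1 and Bglap2 were larger than in mesenchyme. The log2 ratio of Alpl was 1.28 (1.10 to 1.45), that of Enpp1 1.06 (0.78 to 1.36) and that of Bglap2 0.91 (0.78 to 1.04). Inside the enamel cluster alone they were 0.64 (0.45 to 0.83), 0.47 (0.16 to 0.79) and 0.59 (0.44 to 0.74). The keratin cluster went the other way for Bglap2, at -1.98 (-2.54 to -1.45) from 34 and 238 UMIs, and for Bglap, at -1.77 (-2.30 to -1.28). So did Enpp1, at -1.75 (-3.74 to -0.21) from 4 and 24 UMIs, while Alpl had 0.25 (-0.31 to 0.79) there. Ank and Smpd3 were lower in Lipo-Clo epithelium, at -0.94 (-1.47 to -0.43) and -0.85 (-1.35 to -0.37) on the log2 scale. Inside the enamel cluster Ank stood at 19.9 against 39.8 CPM (33 and 36 UMIs) and Smpd3 at 26.5 against 45.3 CPM (44 and 41 UMIs). In the keratin cluster Ank had a log2 ratio of -1.09 (-2.05 to -0.22) and Smpd3 -2.20 (-3.71 to -0.97). Bglap in the keratin cluster stood at 46.8 against 160 CPM, near the 49.1 and 146 CPM of glia, a class not known for osteocalcin. Of the osteocalcin UMIs of Lipo-PBS glia, 1 cell held 70 of 154. How much of the Bglap in the keratin cluster was free RNA was not tested. The share of epithelial cells in the enamel cluster, given above, differed between the libraries. Whether these ratios differ from those in mesenchyme was not tested.

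Other genes of the same pathways, in lists drawn up with earlier results of these data known, were compared in the same way. Of the phosphate transport and endocrine list, 2 of 11 genes passed the filter (Xpr1, the phosphate exporter, and Fgfr1), with 0 past the limit and a median log2 ratio of -0.12. Of 9 genes of pyrophosphate and nucleotide metabolism 3 passed (Enpp2, Ppa1 and Ppa2), with 0 past the limit and a median log2 ratio of 0.38. Under the filter, genes of the lists past 1.5-fold with an interval clear of 0 are named here after their values were seen. How many of all genes under the filter were past 1.5-fold was not counted. With a filter of 20 UMIs per gene in its place, 842 genes were higher and 1466 lower past 1.5-fold. These counts also take in genes that passed the 10% filter, so they give no share to set beside the genes named. Whether the named genes are more than such a share cannot be read. In the pyrophosphate list the log2 ratio of Entpd1 was -1.26 (-1.53 to -0.99) and that of Entpd2 -0.73 (-0.97 to -0.49), while Enpp3 stood at 4.78 against 9.54 CPM (69 and 128 UMIs). In the other lists it was -1.19 (-2.15 to -0.30) for Galnt3, 0.74 (0.48 to 1.01) for Vdr and 0.89 (0.61 to 1.18) for Bglap3. Of 9 genes of the phospholipid and vesicle list 5 passed and of 7 osteoblast regulators 6 passed, with 0 past the limit in either and medians of 0.10 and 0.09. Of the 5 Gla protein and carboxylation genes 3 passed, with a median of 0.16 and 1 past the limit, lower in Lipo-Clo. This was Mgp, matrix Gla protein, an inhibitor of soft tissue calcification. It stood at 266 against 714 CPM, or -1.42 (-1.48 to -1.37) on the log2 scale, and at 68.0 against 60.6 CPM in the osteoblast- or cementoblast-like state. Mgp was among the leading genes of the periodontal ligament-like state, which made up 5.15% of Lipo-Clo and 12.4% of Lipo-PBS mesenchymal cells. The part of this mixture in the ratio of Mgp was not tested.

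Inside the states the lists gave few more names. In the osteoblast- or cementoblast-like state the genes past the limit were 0 for all lists but the Gla list, where Bglap3 had 68.5 against 37.5 CPM, a log2 ratio of 0.87 (0.42 to 1.33), with the same doubt on its reads as Bglap2. In the odontoblast-like state 4 of the 24 list genes that passed the filter were past the limit higher and 3 lower, beside 10.8% and 13.3% of all genes there. Bglap3 had a log2 ratio of 0.76, as did Sp7, the osteoblast factor osterix, from 131 and 56 UMIs each. Fam20c, the kinase of secreted phosphoproteins, had a log2 ratio of 1.03 (0.21 to 1.93) and Smpd1, the acid sphingomyelinase, 0.79 (0.03 to 1.60). Mgp had -1.81 (-2.52 to -1.13) from 26 and 66 UMIs, and the intervals of the other lower genes, Ggcx and Asah1, included 0.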

How the data were processed

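Single cells of first mandibular molars and surrounding tissue were sequenced in 1 library per condition. The authors deposited raw UMI counts per gene and cell. The file headers name Cell Ranger 8.0.0, whereas the submitters' processing notes name Cell Ranger 3.1.0, Seurat 3.1.1 and GRCm39, and which holds was not settled. The chemistry (3′ or 5′) is not given in the sources used here.

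Cells were left out below 200 genes or above 20% of mitochondrial UMIs. Scrublet's automatic threshold called 0 and 1 cells, so the 632 and 633 highest scores (0.8% per 1000 cells) were left out. Counts were scaled to 10000, log-transformed and clustered with scanpy 1.11.5 (2000 variable genes without the members, 30 components, 20 neighbours, Leiden 1, and 20 components and Leiden 0.6 for mesenchyme). Clusters were named from marker lists, each needing 3 markers at 2-fold and in 10% of cells. Members and lists were chosen with earlier results of these data known. Named from the lists were genes past 1.5-fold whose interval left out 1, and for each member the 3 genes of highest Pearson r over the states with at least 50 cells per library.

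UMIs were summed per library and class or state. Levels are CPM with exact Poisson intervals, shares have Clopper-Pearson intervals and ratios have exact intervals for 2 Poisson counts, all at 95%. UMIs per library totalled 26852423 (Lipo-Clo) and 25831678 (Lipo-PBS) in cells used. No p-value was computed, since each condition has 1 library. Scaling alternatives used edgeR 4.0.16 and DESeq2 1.42.0. The ratio code was tested on simulated data. UMI levels were not scaled for gene length, so shares among members (Alpl with Enpp1 and Ank, both transporters, both osteocalcin genes) are compared only between cell groups and libraries.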

Additional observations from a re-analysis of the deposited data

Results flagged for a closer look

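Some members had ratios of opposite sign in different mesenchymal states, each clear of 0 by counting error, in 1 library per condition. The differences between states were not tested.

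Bglap had a log2 ratio (Lipo-Clo over Lipo-PBS) of 2.16 in the papilla- or pulp-like state led by Ctnnd2 and of -1.23 in the one led by Pcp4, and Bglap2 2.21 and -1.12. In the Ctnnd2 state 2 of 495 Lipo-Clo cells held 84.9% of the osteocalcin UMIs, 1 of them 670 of 817. Without these 2 cells the state had 135 CPM of osteocalcin in Lipo-Clo, against 198 CPM in Lipo-PBS. In the papilla- or pulp-like state led by Pcp4, 1 of 398 Lipo-Clo cells held 59 of 213 osteocalcin UMIs and 1 of 232 Lipo-PBS cells 91 of 331.

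Alpl had 0.78 in the dental follicle-like state and -0.56 in the osteoblast- or cementoblast-like state. Smpd3 had 0.39 in the odontoblast-like state and -1.91 in the Ctnnd2 state, from 7 and 16 UMIs. Slc20a2 had 0.57 in the Pcp4 state and -0.19 in the Ctnnd2 state, where it was highest.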

How the results depend on the processing

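No paired analysis was possible because the design gives 1 library a condition, and no replicate could be left out. Against 45 genes higher and 250 lower past 1.5-fold in mesenchyme, 85 were higher with cells thinned to 1000 UMIs and 24 with the same mixture of states. A limit of 1.2-fold gave 1050 and 1126, one of 2-fold 7 and 45, and a filter of 20 UMIs per gene 842 and 1466. Members past the limit went from 0 to 1 of 6 (Slc20a2, higher) with the mean over cells and with the 1.2-fold limit. Beside it, the 1.2-fold limit was passed by 1050 of the 4737 genes compared, and 53 genes were higher past 1.5-fold with the mean over cells. In the odontoblast-like state the log2 ratio of Enpp1 became 0.42 with thinned cells and that of Slc20a1, from 2 and 3 UMIs, 0.49 with the mean over cells. The cause was not tested. Of 395 alternative log2 ratios of members, 331 lay within the counting interval of the value reported, as did 368 of 480 shares. Alternatives added after seeing the data counted the cluster of several lineages as mesenchyme (Bglap 0.27, 0 members past the limit) or left out the odontoblast- and osteoblast-like states. Depth limits Phospho1 and Slc20a1 most.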

Other observations

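Osteocalcin UMIs in classes not known to make it were not alike in the libraries. In B cells osteocalcin stood at 40.5 against 116 CPM (Lipo-Clo first), at 46.6 and 147 CPM in T or NK cells and at 82.8 and 221 CPM in glia, but at 359 and 166 CPM in perivascular cells, where 1 Lipo-Clo cell held 92 of 281 UMIs. Endothelium had 107 and 622 CPM. Single cells weighed on the Lipo-PBS values too. There, 1 glial cell held 70 of 154 osteocalcin UMIs (121 CPM without it) and 1 T or NK cell 19 of 39. In Lipo-PBS endothelium 3 of 520 cells held 33.1%, with 422 CPM without them.

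Counted over 8 members without the osteocalcin genes in cells thinned to 1000 UMIs, the mean number of members seen per cell was highest in the papilla- or pulp-like state led by Ctnnd2 (1.05 ± 0.77 in Lipo-Clo and 1.26 ± 0.78 in Lipo-PBS, SD over cells), the odontoblast-like state (1.06 and 1.11) and the osteoblast- or cementoblast-like state (1.02 and 1.10), and lowest in the fibroblast-like state led by Col14a1 (0.10 and 0.15). At least 3 of the 8 were seen in 6.64% and 7.82% of osteoblast- or cementoblast-like cells and in 4.04% and 5.68% of odontoblast-like cells.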
